A study of Mus musculus with 4 samples.

Results

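The genes described here are 40 components of lipopolysaccharide (LPS) sensing and of the NF-kB pathway, taken by symbol from a list among the 39056 genes of a count table. They comprise the TLR4 receptor complex and TLR2, the adaptors, the kinases and ubiquitin ligases that follow them, the IKK kinases, the NF-kB subunits, the inhibitors of the IkB family and genes that NF-kB itself switches on. All 40 were found. Of these, 36 reached 1 CPM (CPM, the read count scaled for library size) in at least 1 of the 4 libraries and are called measured here, as were 11803 genes in the whole table. The other 4 (Lbp, Ticam2, Irak3 and Traf1) stayed below that level.

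Each of the 4 labels had 1 RNA-seq library of polyadenylated RNA. The labels describe lung cells of S1PR1-GFP reporter mice, in which green fluorescent protein marks cells that express the sphingosine-1-phosphate receptor S1PR1. Cells were sorted as GFP+CD31+CD45-, a gate meant for endothelial cells. The groups are labelled no LPS and 8, 16 and 20 h of LPS, a bacterial endotoxin given into the peritoneum at 10 mg/kg, and the hours are read here as time since LPS. Mice of all groups carried the reporter. The labels do not say how old the mice were, which strain they came from or how many were used for a library. Values set out in fours follow the order no LPS, 8 h, 16 h, 20 h.

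The libraries were deep and even, with 27566454 to 28905776 reads each, and 3 reads, the limit that a count of 0 allows, stood at 0.1045 to 0.1083 CPM. The transcripts went against the endothelial label. Of 12 endothelial genes 1 was measured (Egfl7, a secreted endothelial factor, between 3.08 and 4.28 CPM), the list summed to 4.81 to 5.71 CPM, and Erg, Emcn, Cldn5 and Sox17 had 0 reads in all 4 libraries. The selectin genes Sele and Selp, which endothelium also makes, were not on this list and went the other way. They were measured, at 7.71, 20.3, 19.8 and 7.44 CPM and at 3.50, 7.80, 8.27 and 3.65 CPM. Of 11 leukocyte and macrophage genes 9 were measured, and their list summed to 99.8 to 134 CPM, mostly from Cd68 and lower at 8 h and 16 h, while Ptprc, the CD45 gene, stood between 1.12 and 1.49 CPM and Itgam had 0 to 4 reads. Of 6 epithelial genes the keratin genes Krt8 and Krt18 were measured, and that list summed to 51.5, 124, 125 and 52.0 CPM. Nearly all of this came from the keratin genes. Epcam (2, 3, 2 and 1 reads), Cdh1 (5, 4, 4 and 3), Sftpc (0, 1, 0 and 1) and Sftpb (0 in all 4) were close to absent. Of 8 mesenchymal genes 5 were measured, and that list summed to 2780, 3085, 3206 and 2956 CPM, mostly from Vim. Prrx1 stood between 209 and 213 CPM and Pdgfra between 31.35 and 34.4 CPM. Col3a1 (4735, 2349, 2305 and 4505 reads) and Dcn (268, 85, 95 and 214) were lower at 8 h and 16 h. The mesenchymal genes not measured were Col1a1 (2, 3, 4 and 0 reads), Col1a2 (0, 0, 1 and 0) and Pdgfrb (23, 11, 13 and 19), so both type I collagen genes were close to absent. Times below are therefore labels of libraries, not times in endothelial cells. The libraries labelled 8 h and 16 h lay close together over all genes (chi-square per gene 1.55), those labelled no LPS and 20 h were the next closest (6.35), and 8 h stood far from no LPS (63.5). The part of the keratin, collagen and Cd68 transcripts, which followed the same split, in the ratios below was not tested.

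LPS is carried by the serum protein LBP to CD14 and from there to the pair of TLR4 and MD-2. TLR4 signals from the plasma membrane through TIRAP and MyD88 to the IRAK kinases, TRAF6 and TAK1, and from endosomes through TRAM and TRIF. These routes meet at the IKK complex, which marks IkB proteins for degradation and so frees NF-kB dimers to enter the nucleus. NF-kB then raises the transcripts of its own brakes, among them IkB-alpha and A20, and in lung endothelium it drives adhesion molecules that recruit neutrophils.

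Genes that NF-kB controls often carry its binding motif, the kappaB consensus, close to their start. RefSeq promoter windows on GRCm38.p6, each of 250 bases before a start and 50 after it, were on hand for 28 of the 40 genes. The consensus was searched on both strands, with overlapping matches kept. It occurred in 9 of these 28 genes (32.1%) and in 5.14% of all 27025 genes with a window. Some genes have several windows. Counted by window, the shares were 28.2% of the 39 windows of these genes and 4.51% of all 32851 windows. The list was chosen to include genes that NF-kB itself switches on. A higher share was therefore built into the list, and the comparison with all genes is not a test of the pathway. The 9 genes were Bcl3, Map3k7, Nfkb2, Nfkbia, Nfkbie, Rel, Tlr2, Tnfaip3 and Tnip1. The stretches before the RefSeq start are shown for 5 of them. That of Tnfaip3 lies inside the gene as GENCODE annotates it, with a start further upstream. They set Tnfaip3, Rel and Tnip1, which stood well above no LPS in the libraries labelled 8 h and 16 h, beside the IkB genes Nfkbia and Nfkbie, which hold the same motif and had smaller or opposite ratios at 8 h. Of the genes with a match that are not shown, Nfkb2 was at 1.23-fold at 8 h, Tlr2 at 1.225-fold, Map3k7 at 0.844-fold and Bcl3 at 0.803-fold. The intervals of Tlr2 and Bcl3 included 1. Irak2, Map3k8 and Tab1, also higher at 8 h, were not among the 9, for want of a match or of a window. Letters run 5′ to 3′ on the strand of the gene, capitals mark the bases of a match on either strand, and bases annotated as exon were left out.
Tnfaip3 (chr10:19015411-19015547, minus strand): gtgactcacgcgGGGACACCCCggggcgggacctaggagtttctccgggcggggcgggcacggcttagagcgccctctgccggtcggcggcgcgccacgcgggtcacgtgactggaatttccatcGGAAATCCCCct
Rel (chr11:23770971-23771119, minus strand): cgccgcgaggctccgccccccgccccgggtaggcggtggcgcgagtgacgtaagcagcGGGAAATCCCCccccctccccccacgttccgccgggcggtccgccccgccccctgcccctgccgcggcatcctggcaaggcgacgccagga
Tnip1 (chr11:54962941-54963090, minus strand): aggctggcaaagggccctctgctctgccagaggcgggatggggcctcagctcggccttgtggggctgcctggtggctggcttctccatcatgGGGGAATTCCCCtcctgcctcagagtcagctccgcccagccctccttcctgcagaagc
Nfkbia (chr12:55492648-55492797, minus strand): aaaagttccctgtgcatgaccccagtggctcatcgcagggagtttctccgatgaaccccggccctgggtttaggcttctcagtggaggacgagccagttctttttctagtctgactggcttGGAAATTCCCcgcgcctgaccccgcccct
Nfkbie (chr17:45555550-45555699, plus strand): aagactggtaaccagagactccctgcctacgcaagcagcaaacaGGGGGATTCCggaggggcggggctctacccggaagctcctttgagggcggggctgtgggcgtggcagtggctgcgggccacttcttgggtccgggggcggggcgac
The matches are letters only, and the count table does not measure binding to them.

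The pathway as a whole stood at nearly the same level in all 4 libraries, with summed levels of 2280.5, 2329.8, 2331.1 and 2298.9 CPM for the 40 genes. A single library per label allows no test against replicates. A gene was therefore called higher or lower by size alone: a fold of at least 2 on scaled counts whose 95% interval left out 1, with 1 CPM or more in the higher library. The intervals, exact and conditional on the summed reads, cover counting error only, and a range in brackets after a fold is its 95% interval. At 8 h against no LPS 1 of the 36 measured genes was called. It was Tnfaip3, on the higher side, where 4.19% of all measured genes were called higher and 8.31% were called in either direction. At 16 h it was again Tnfaip3 alone, where 4.13% of all genes were called higher and 8.23% in either direction. At 20 h 0 of 36 were called, where 0.652% of all genes were. The median log2 ratio of the 36 genes to no LPS was -0.01 at 8 h, 0.00 at 16 h and 0.01 at 20 h, and over all measured genes it was 0.00, 0.01 and 0.00.

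**Figure D1:**
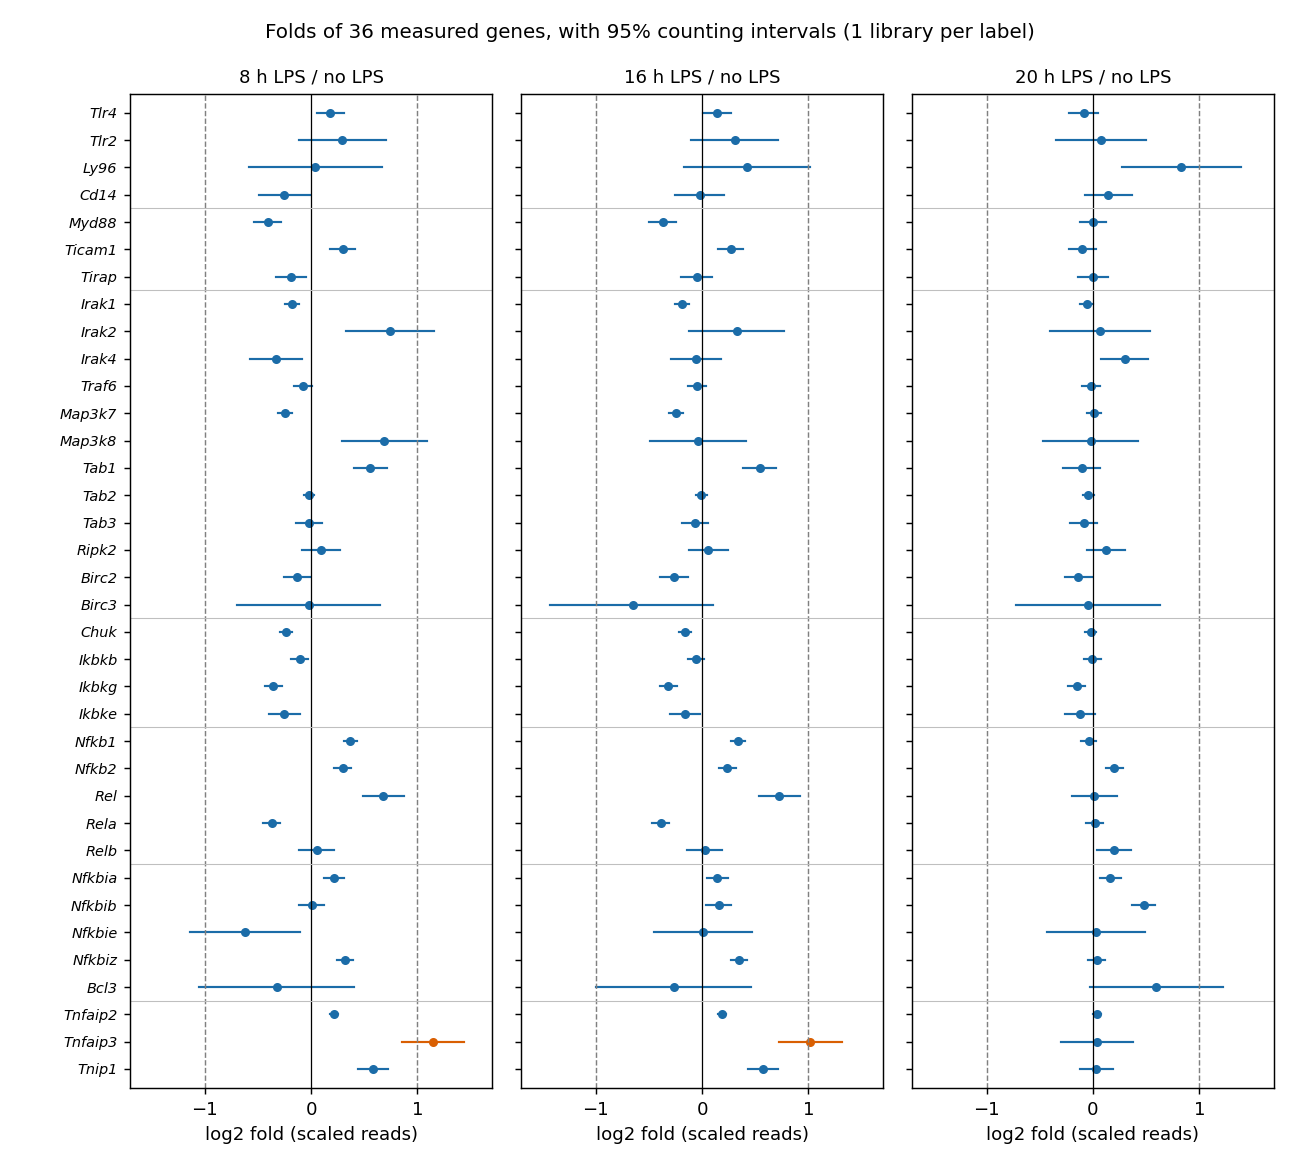
Fold of each of the 36 measured genes against the library labelled no LPS, on a log2 axis, with 95% counting intervals as bars, dashed lines at 2-fold and genes in the order of their roles. Tnfaip3, in orange, is the gene past the dashed line at 8 h (2.21-fold) and 16 h (2.03-fold), and at 20 h every point lies inside the lines.

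The comparisons of 8, 16 and 20 h with no LPS share the no LPS library. Below 2-fold the counts resolved many small differences. The 95% interval left out 1 for 26 of the 36 genes at 8 h, for 20 at 16 h and for 9 at 20 h. Over all measured genes it did so for 70.3%, 70.9% and 26.5%, so at 8 h and 20 h the share in the pathway was near this background and at 16 h it was below it. At a fold of at least 1.5, 5 genes passed at 8 h (19.9% of all genes): Tnfaip3, Rel, Irak2 and Map3k8 on the higher side (10.4% of all genes) and Nfkbie on the lower side (9.41%). At 16 h 2 passed, Tnfaip3 and Rel, both higher, where 20.0% of all genes passed and 10.6% were higher. At 20 h 1 passed, Ly96, higher, where 2.0% of all genes passed and 1.72% were higher. Tnip1 at 8 h lay just under this line and Tab1 a little further below it.

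Among the receptors, Tlr4, which encodes the signalling receptor for LPS (chromosome 4, 66827584 to 66930284, plus strand, mm10), had 909, 1048, 983 and 838 reads, or 32.2, 36.5, 35.5 and 30.3 CPM. It was at 1.14-fold (1.04 to 1.24) relative to no LPS at 8 h, 1.103-fold (1.01 to 1.21) at 16 h and 0.941-fold at 20 h. Tlr4 was thus present in every library and differed little between them. Cd14, whose product hands LPS to the receptor, stood at 11.4, 9.61, 11.3 and 12.6 CPM. Its lowest library was 8 h, at 0.841-fold (0.714 to 0.991). Cd14 is also a monocyte and macrophage gene, and genes of that list did not share an order. Cd68 stood at 99.7, 66.5, 62.01 and 96.6 CPM, lower at 8 h and 16 h. Lyz2 stood at 21.55, 22.96, 24.54 and 25.64 CPM, and Adgre1 had 12, 31, 77 and 24 reads. The part of such cells in the Cd14 reads was not tested.

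Ly96 encodes MD-2, the pocket of the receptor that binds LPS (chromosome 1, 16688051 to 16709611, plus strand). It had 45, 47, 59 and 78 reads. The highest library was 20 h, at 1.77-fold (1.21 to 2.61) relative to no LPS, the largest fold of the 36 genes at that label and still under the 2-fold line. Tlr2, the receptor for bacterial lipoproteins, stood at 3.33, 4.08, 4.12 and 3.503 CPM, with intervals that included 1 in each comparison with no LPS. Lbp, mostly a liver gene, had 3, 1, 0 and 0 reads, at or below the limit that a count of 0 allows. In bulk RNA, a lower share of cells that express a gene and less RNA per cell cannot be told apart.

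Per kilobase of exon, which allows genes to be set side by side, Cd14 (6.598 CPM per kb with no LPS) and Tlr4 (5.79) stood at similar levels, and Ly96 (1.56) and Tlr2 (1.103) lower. Cd14 and Tlr4 lay above Ly96 and Tlr2 in all 4 libraries, while Cd14 and Tlr4 changed places between them. Such orders depend on the length used, here all annotated exons of a gene. Per kilobase of the longest transcript, Tlr4 (7.89 with no LPS) lay above Cd14 (6.96), and Ikbkb stood at 20.4 in place of 5.18.

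**Figure D2:**
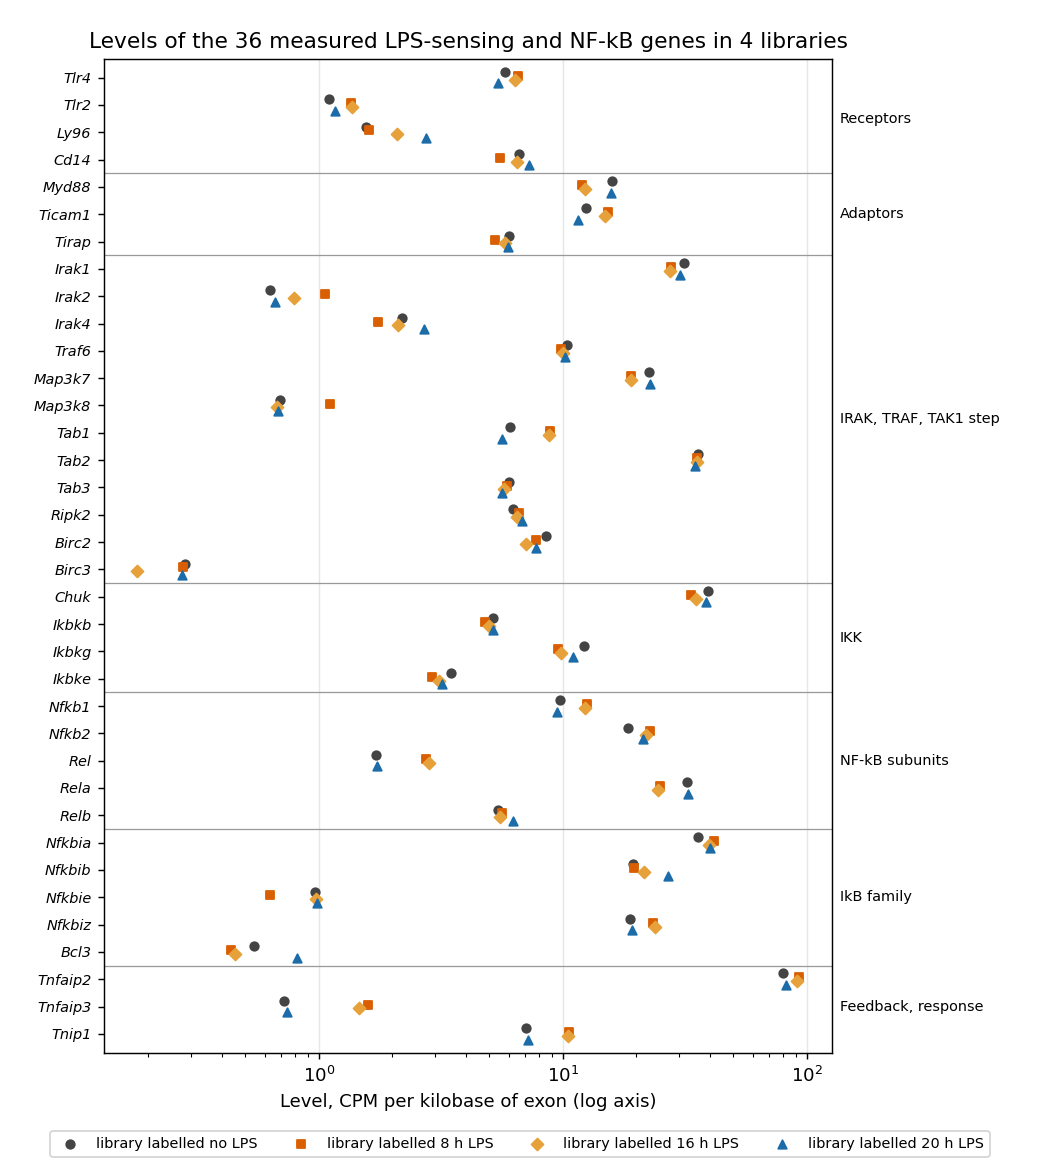
Level of each measured gene in CPM per kilobase of exon (log axis), with a symbol for each of the 4 libraries and genes grouped by role. The symbols of a gene lie close together next to the spread between genes, which runs from 0.1801 (Birc3 at 16 h) to 92.9 (Tnfaip2 at 8 h).

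The adaptors did not share a direction. Myd88, the adaptor of most Toll-like receptors and of the IL-1 receptor, stood at 40.9, 30.9, 31.6 and 40.8 CPM. The libraries labelled 8 h and 16 h were the low ones, at 0.755-fold (0.691 to 0.825) and 0.775-fold (0.709 to 0.846) relative to no LPS. Ticam1, which encodes TRIF, the adaptor of the interferon branch, was on the other side, at 37.1, 45.7, 44.8 and 34.7 CPM, or 1.23-fold (1.13 to 1.33) at 8 h and 1.21-fold (1.11 to 1.31) at 16 h. Neither gene reached 2-fold.

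Tirap, which bridges MyD88 to TLR4 at the membrane, was nearly level at 29.5, 25.9, 28.5 and 29.5 CPM. Ticam2, which encodes TRAM, the bridge between TLR4 and TRIF, had 11, 4, 6 and 11 reads. It shares 838 bases of exon with Tmed7 on the same strand, and reads there cannot be assigned to either gene. Per kilobase, the adaptors with no LPS were at 15.9 (Myd88), 12.4 (Ticam1), 5.99 (Tirap) and 0.0672 (Ticam2) CPM per kb, so the TRAM transcript was the scarce one.

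The IRAK kinases carry the signal from MyD88 to TRAF6. Irak1 was the most abundant of them, also per kilobase, at 148, 131, 129.9 and 142 CPM, or 0.883-fold (0.844 to 0.922) relative to no LPS at 8 h. Irak4, the kinase that starts the relay, stood at 11.04, 8.78, 10.7 and 13.6 CPM. It was lowest at 8 h (0.795-fold, 0.671 to 0.942) and highest at 20 h (1.23-fold, 1.06 to 1.43).

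Irak2, which prolongs signalling, had 79, 134, 97 and 81 reads. Its 8 h library stood apart from the other 3 at 1.67-fold (1.25 to 2.23) relative to no LPS, while 16 h was at 1.25-fold (0.921 to 1.71). Irak3 encodes IRAK-M, a brake found mainly in monocytes and macrophages. It had 2, 1, 13 and 5 reads, under 1 CPM throughout, and 16 h stood at 6.63-fold (1.501 to 60.5) relative to no LPS, a ratio on very few reads. The macrophage genes Adgre1 (12, 31, 77 and 24 reads) and Csf1r (9, 15, 30 and 26) were also highest at 16 h, whereas Cd68 was lowest there. The part of such cells in the Irak3 reads was not tested.

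At the next step, most genes were level. Traf6, a ubiquitin ligase, stood between 77.5 and 81.7 CPM. Tab2, which links ubiquitin chains to the kinase TAK1, stood at 219.8, 217, 219 and 213 CPM, and Tab3, its relative, between 37.6 and 39.98 CPM. Map3k7, which encodes TAK1 itself, stood at 145, 122, 122 and 146 CPM, or 0.844-fold (0.806 to 0.883) relative to no LPS at 8 h and 0.843-fold (0.805 to 0.882) at 16 h. Tab1, the activator subunit of TAK1 (chromosome 15, 80133127 to 80161707, plus strand), was on the other side, with 575, 859, 821 and 524 reads. Its libraries labelled 8 h and 16 h were at 1.47-fold (1.32 to 1.64) and 1.46-fold (1.31 to 1.62) relative to no LPS, and 20 h at 0.9301-fold (0.825 to 1.05).

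Map3k8 encodes TPL2, a kinase held by the NF-kB1 precursor. It had 88, 144, 84 and 85 reads. Only the 8 h library was high, at 1.61-fold (1.23 to 2.12) relative to no LPS, and 16 h was at 0.604-fold (0.456 to 0.796) relative to 8 h. Ripk2, the kinase of the NOD receptors, stood between 17.6 and 19.1 CPM. Birc2, which encodes the ubiquitin ligase cIAP1, stood between 32.5 and 39.03 CPM. Its neighbour and close relative Birc3 had only 40, 40, 25 and 38 reads, with intervals that included 1 in all 5 comparisons. Traf1, itself an NF-kB target, had 17, 22, 22 and 21 reads and was not measured.

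All 4 IKK genes lay a little under no LPS at 8 h, with intervals that left out 1, as did those of 4111 of all 11803 measured genes on the lower side, and none reached 1.5-fold. Chuk (IKK-alpha) stood at 200.4, 170.4, 179.6 and 197 CPM, or 0.8503-fold (0.818 to 0.884) relative to no LPS at 8 h. Ikbkb (IKK-beta) stood at 98.8, 91.8, 94.9 and 98.5 CPM, or 0.929-fold (0.8803 to 0.9799). Ikbkg, which encodes the scaffold NEMO, stood at 99.3, 77.8, 79.8 and 89.3 CPM, or 0.782-fold (0.7399 to 0.828). Ikbke, which encodes the related kinase IKK-epsilon, was the least abundant, also per kilobase, at 31.3, 26.3, 28.1 and 28.8 CPM, or 0.841-fold (0.762 to 0.928). At 16 h the interval of Ikbkb included 1 and those of the other 3 did not, and at 20 h the interval of Ikbkg alone left out 1, at 0.899-fold (0.851 to 0.949). Exons of Ikbkg share 418 bases with G6pdx on the opposite strand.

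The NF-kB subunits split. Rel, which encodes c-Rel (chromosome 11, 23736847 to 23770970, minus strand), had 362, 589, 587 and 358 reads, or 12.8, 20.5, 21.2 and 12.9 CPM. The libraries labelled 8 h and 16 h were high and the others low, at 1.602-fold (1.403 to 1.83), 1.65-fold (1.45 to 1.89) and 1.01-fold (0.8697 to 1.17) relative to no LPS at 8, 16 and 20 h. Nfkb1, which encodes the precursor of p50 (chromosome 3, 135584655 to 135691547, minus strand), also had its larger values in the libraries labelled 8 h and 16 h, at 118, 152, 148 and 114 CPM, or 1.29-fold (1.24 to 1.35) at 8 h and 1.26-fold (1.204 to 1.32) at 16 h.

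Rela, which encodes p65, the main activating subunit (chromosome 19, 5637483 to 5648130, plus strand), was on the opposite side. It stood at 99.2, 76.8, 75.8 and 100.2 CPM, and the libraries labelled 8 h and 16 h were the low ones, at 0.774-fold (0.732 to 0.819) and 0.764-fold (0.721 to 0.808) relative to no LPS, with 20 h at 1.01-fold (0.958 to 1.06). Nfkb2, which encodes the precursor of p52, was at 1.23-fold (1.16 to 1.296), 1.18-fold (1.12 to 1.25) and 1.15-fold (1.09 to 1.22) at 8, 16 and 20 h, so it stood above no LPS at 20 h too. Its log2 ratio at 20 h was 0.20. The median at 20 h was 0.18 in the bin of genes richest in G and C, and Nfkb2 is rich in both (59.4%). Relb, whose product usually pairs with p52, stood between 21.2 and 24.3 CPM.

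The IkB genes were mixed as well. Nfkbia, which encodes IkB-alpha (chromosome 12, 55489410 to 55492647, minus strand), is a rapid target of NF-kB, and the match in its stretch above begins 29 bases before the start. It had 1629, 1919, 1765 and 1785 reads, or 57.6, 66.8, 63.7 and 64.5 CPM. The libraries labelled LPS all lay a little above no LPS, at 1.16-fold (1.08 to 1.24), 1.105-fold (1.03 to 1.18) and 1.12-fold (1.04 to 1.197). Nfkbie, which encodes IkB-epsilon, had 83, 55, 82 and 83 reads. Its 8 h library was the low one, at 0.652-fold (0.455 to 0.928) relative to no LPS, and 16 h and 20 h lay within counting error of no LPS.

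Nfkbib, which encodes IkB-beta, stood at 42.1, 42.3, 46.9 and 58.5 CPM and was highest at 20 h, at 1.39-fold (1.29 to 1.499) relative to no LPS. Bcl3, an atypical IkB that binds p50 and p52, was also highest at 20 h, on 38, 31, 31 and 56 reads, or 1.504-fold (0.979 to 2.33), an interval that includes 1. Both transcripts are rich in G and C (58.8% and 62.6%, at percentiles 93.6 and 99.1 of measured genes). The 20 h library showed a median log2 ratio to no LPS of 0.18 in the highest of 20 bins of GC content and -0.03 in the lowest. Nfkbib lies under the highest bin. Its log2 ratio at 20 h was 0.475, where the largest median of any bin was 0.184. Corrected by these bins, the log2 ratio of Bcl3 at 20 h was 0.38 in place of 0.56. The richest other members were Nfkb2 (59.4% G and C), Rela (59.4%), Tab1 (58.2%) and Tnip1 (57.8%). They stood at 1.15-fold, 1.01-fold, 0.9301-fold and 1.02-fold at 20 h. The part of GC content in the Nfkbib and Nfkb2 ratios was not tested. Nfkbiz, which encodes a nuclear IkB needed for secondary response genes, had the order of Rel, at 94.4, 118, 120.1 and 96.7 CPM, or 1.25-fold (1.18 to 1.31) at 8 h and 1.27-fold (1.21 to 1.34) at 16 h.

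The gene that was called is a feedback gene. Tnfaip3 encodes A20, a ubiquitin editor that ends NF-kB signalling (chromosome 10, 19000910 to 19015657, minus strand). It had 147, 330, 292 and 148 reads, or 5.201, 11.5, 10.5 and 5.34 CPM. The libraries labelled 8 h and 16 h were high and the other two low, at 2.21-fold (1.81 to 2.703), 2.03-fold (1.66 to 2.49) and 1.03-fold (0.812 to 1.3) relative to no LPS at 8, 16 and 20 h. With every library thinned to the smallest total, the log2 ratio at 16 h was 0.99 and the call was lost, since 16 h lies at the 2-fold line. Even at 8 h, A20 transcripts were scarce, at 1.59 CPM per kb.

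Tnip1, which encodes the A20-binding protein ABIN1 (chromosome 11, 54910785 to 54962917, minus strand), had 708, 1078, 1030 and 709 reads. It followed the order of Tnfaip3, at 1.499-fold (1.36 to 1.65), 1.48-fold (1.35 to 1.64) and 1.02-fold (0.9196 to 1.14) relative to no LPS. Tnfaip2, a cytokine-induced gene of vessels and myeloid cells, was the most abundant of the 40, also per kilobase, at 399, 463, 453 and 409.9 CPM. It was at 1.16-fold (1.13 to 1.19) relative to no LPS at 8 h, so the largest counts gave a narrow interval around a small difference.

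**Figure D3:**
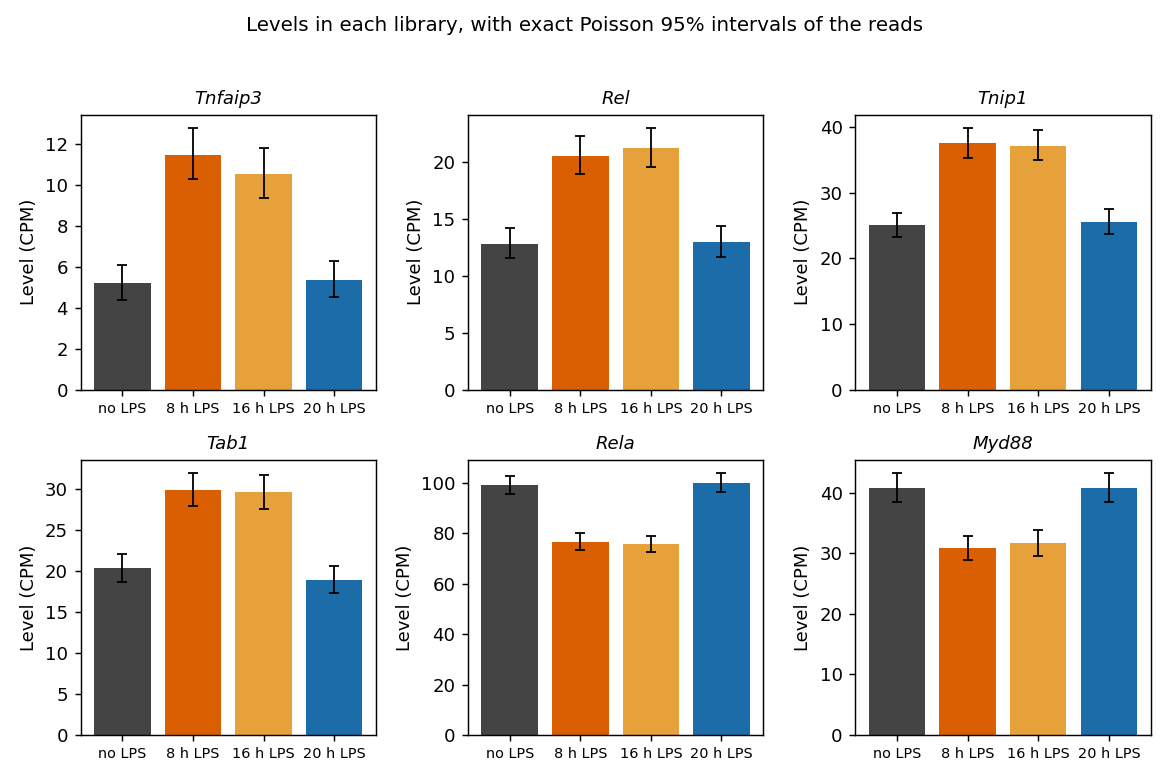
Level in CPM of 6 genes in each of the 4 libraries, as bars from 0 with exact Poisson 95% intervals of the reads, chosen after their values were seen. Tnfaip3, Rel, Tnip1 and Tab1 have taller bars in the libraries labelled 8 h and 16 h, Rela and Myd88 have shorter ones there, and the intervals of no LPS and 20 h overlap in all 6.

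Between successive labels, 16 h against 8 h gave 0 called of 36, where 0.237% of all measured genes were called. The 95% interval left out 1 for 6 of 36 there, against 10.6% of all genes. Past 1.5-fold lay 2 of 36, against 0.779% of all genes: Nfkbie on the higher side (1.54-fold, 1.08 to 2.21, where 0.458% of genes were) and Map3k8 on the lower side (0.322%). For 20 h against 16 h, 0 of 36 were called, against 8.47% of all genes, and the interval left out 1 for 19, against 71.4%. Past 1.5-fold lay 4 of 36 in that step, against 20.7%. They were Tnfaip3 (0.507-fold, 0.413 to 0.6201), Rel (0.6102-fold) and Tab1 (0.639-fold) on the lower side (10.2% of genes), and Bcl3 (1.81-fold, 1.15 to 2.9) on the higher side (10.6%). A straight line over the label hours, fitted to all 4 libraries with edgeR's quasi-likelihood test, called 0 of 36 pathway genes and 0 of 11803 genes (0%) at a Benjamini-Hochberg adjusted p under 0.05. At an unadjusted p under 0.05 there were 0 and 43. DESeq2 also called 0, with 0 and 25 at an unadjusted p under 0.05. A line does not describe an order in which the middle labels stand apart, as for Tnfaip3 and Rela.

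Of the upstream neighbours of the pathway, few reached 2-fold, as did few genes of the whole table (8.31% at 8 h and 8.23% at 16 h), so counts of 0 in these short lists say little about them. Of 13 other Toll-like receptor and chaperone genes 5 were measured, and 0 were called in any of the 5 comparisons. Tlr1, Tlr5, Tlr6, Tlr7, Tlr8 and Tlr13 had at most 18 reads in a library. Hsp90b1, which encodes the chaperone that folds these receptors, stood between 5543 and 6310 CPM. Of 15 measured genes of the ubiquitin and TNF receptor side, 0 were called at 8 h and 20 h and 1 at 16 h. This was Ube2v1, a partner of the ubiquitin-conjugating enzyme that works with TRAF6, on 35, 28, 17 and 32 reads (2.02-fold lower, 1.101 to 3.84 at 16 h). Of 12 measured MAP kinase genes 0 were called. At 8 h the interval left out 1 for 10 of them, 7 higher and 3 lower, where it did so for 70.3% of all measured genes. Their median log2 ratio was 0.17. Mapk11, which encodes p38-beta, came closest to 2-fold, at 1.78-fold (1.59 to 2.01) at 8 h, 1.87-fold (1.66 to 2.105) at 16 h and 1.03-fold at 20 h. Map2k3 and Map2k6, which encode the kinases that activate p38, were at 1.43-fold (1.35 to 1.52) and 1.498-fold (1.34 to 1.67) at 8 h. On the ubiquitin side, Map3k14, which encodes the kinase NIK of the non-canonical pathway, was at 1.55-fold (1.29 to 1.87).

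Of 15 measured genes that restrain the pathway, 1 was called at 8 h and at 16 h, where 8.31% and 8.23% of all measured genes were. This was Nlrp12, a NOD-like receptor, on the lower side, which had 138, 11, 11 and 136 reads (12.7-fold lower, 6.904 to 26.1 at 8 h). Socs1, a cytokine-induced brake on JAK kinases, was higher at 20 h, on 81, 86, 99 and 187 reads (2.36-fold higher, 1.81 to 3.097). At that label 0.652% of all measured genes were called. Sigirr, a restraining member of the IL-1 receptor family, was at 1.74-fold (1.64 to 1.86) relative to no LPS at 8 h, and Pdlim2, which sends nuclear p65 to degradation, at 1.75-fold (1.57 to 1.95). Cyld, which removes ubiquitin chains from TRAF proteins and NEMO, was at 1.38-fold (1.31 to 1.47). Nlrc5, another NOD-like receptor, lay on the other side at 0.543-fold (0.486 to 0.606), and Cactin at 0.741-fold (0.701 to 0.784). These 5 did not reach 2-fold. The interval left out 1 at 8 h for 4 of the 15 on the higher side and 4 on the lower side, below the 70.3% over all measured genes. Their median log2 ratio was -0.06.

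Downstream, 33 NF-kB target genes were listed and 22 were measured. At 8 h there were 6 called higher and 3 lower, where 8.31% of all measured genes were called, and the median log2 ratio of the 22 was 0.41 against 0.00 for all measured genes. At 16 h there were 6 higher and 2 lower (median 0.31, with 8.23% of all genes called), and at 20 h 0 of 22 were called (median 0.03, with 0.652%). Among the largest ratios at 8 h were those of Lcn2, which encodes an iron-withholding protein (10.1-fold lower, 9.31 to 10.9), the chemokine gene Ccl20 (3.84-fold higher, 1.88 to 8.62), the chemokine gene Cxcl2 (3.23-fold lower, 1.98 to 5.48), Cd40, a co-stimulatory receptor gene (2.65-fold lower, 2.02 to 3.495), and Sele, the E-selectin gene (2.63-fold higher, 2.25 to 3.08). The chemokine genes Cxcl1 and Ccl2 stood at 57.4, 125, 136 and 65.1 CPM and at 18.8, 40.7, 41.00 and 18.3 CPM. Both were higher at 8 h (2.17-fold and 2.17-fold) and at 16 h (2.36-fold and 2.19-fold). Ier3 (4317, 10294, 10228 and 4302 reads) and Selp (99, 224, 229 and 101) were higher at these labels too. Well known targets thus stood on opposite sides. Between 16 h and 20 h 3 were higher and 7 lower, where 8.47% of all genes were called.

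The cytokine genes Tnf, Il6, Il1b and Il1a, also targets of LPS signalling, were close to absent in every library. Tnf had 0, 1, 3 and 3 reads, Il6 had 5, 1, 3 and 3, Il1b had 1, 1, 4 and 1 and Il1a had 1, 0, 1 and 2. Icam1, an adhesion molecule that endothelium makes in inflammation, had 3, 6, 10 and 6. At these counts a difference between labels was not detectable. Other targets were abundant with no LPS already, led by Ptgs2, which encodes the inducible cyclooxygenase. It stood at 2240, 1593, 1563 and 2077 CPM, with 8 h at 0.711-fold (0.703 to 0.7199) relative to no LPS. Vcam1, a vascular adhesion molecule, stood at 81.3, 120.3, 119 and 82.5 CPM, and Csf1, a macrophage growth factor, at 169, 225, 226 and 169.6 CPM. Both were highest in the libraries labelled 8 h and 16 h, without reaching 2-fold.

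**Figure D4:**
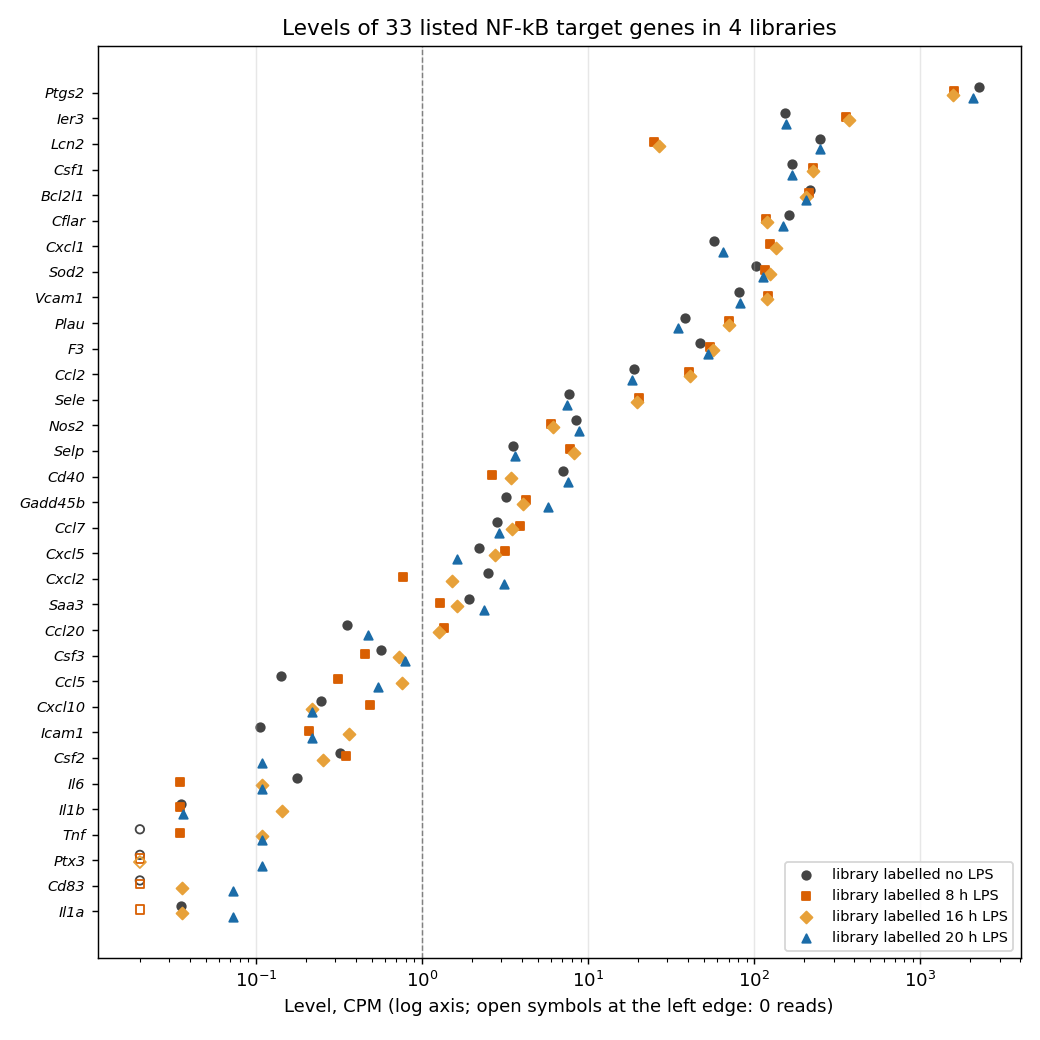
Level in CPM (log axis) of the 33 listed NF-kB target genes, ordered by their highest level, with a symbol for each library, open symbols for 0 reads and a dashed line at 1 CPM. Tnf, Il6, Il1b, Il1a and Icam1 lie left of the line in all 4 libraries, and the Lcn2 symbols of 8 h and 16 h lie far left of those of no LPS and 20 h.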

How the data were processed

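The authors deposited raw counts of reads per gene, made with STAR and featureCounts on mm10, per the submitters' processing notes. Their versions, the annotation, the strand setting and how multi-mapping reads were counted were not given in the sources used here. Exons of 13 of the 40 genes overlap another gene, mostly on the opposite strand, and these counts, like those of close relatives such as Birc2 and Birc3, are uncertain. The 13 are Myd88, Ticam2, Tirap, Irak1, Irak2, Irak3, Irak4, Ikbkg, Ikbke, Nfkb2, Nfkbib, Bcl3 and Tnfaip2. Columns were matched to samples by title. Symbols, coordinates and exon lengths came from GENCODE M21 (GRCm38) by stable identifier, which matched 38872 of 39056 genes. Counts were scaled with TMM factors of edgeR 4.0.16 from all 4 libraries. Folds carry exact conditional binomial (Clopper-Pearson) 95% intervals, and log2 ratios a prior count of 2. The trend used glmQLFit and glmQLFTest with 2 residual degrees of freedom and Benjamini-Hochberg adjustment over 11803 genes, with DESeq2 1.42.0 as an alternative. Without molecular identifiers, the intervals and the limit for a count of 0 describe counting error alone. The steps were tested on simulated data. Alternatives changed the scaling, the CPM minimum, the fold, the interval level, the prior count and the depth, and a GC correction was chosen after seeing the data. The members and all lists were chosen with earlier results of these data known. The rule for named genes took the receptor complex, every member called in any comparison and the members with the most reads in each role, and in the other lists up to 4 called genes by size. Other single genes, the genes of the bar plot and the promoters shown were picked with their values in view. The 24 h time point of the protocol was not used here.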

Additional observations from a re-analysis of the deposited data

How the results depend on the processing

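The count of pathway genes called was 1 at 8 h, 1 at 16 h and 0 in the other 3 pairs, and it was the same with library totals, DESeq2 size factors, a minimum of 10 CPM, a stricter interval and the GC correction. A fold of at least 1.5 gave 5 at 8 h, 2 at 16 h, 1 at 20 h, 2 for 16 h against 8 h and 4 for 20 h against 16 h. With no minimum CPM, Irak3 was added at 16 h (2 called) and for 16 h against 8 h (1 called). Thinning to the smallest total left 0 at 16 h, since Tnfaip3 lies at the 2-fold line there. The trend called 0 under each of its 3 alternatives. Over the scalings, the prior count and the GC correction, the median log2 ratios of the pathway lay between -0.03 and 0.05, and their sign differed between settings in all pairs but 8 h against no LPS and 20 h against 16 h. Over all genes, the 981 calls at 8 h became 332 at 10 CPM and 2343 at 1.5-fold, and the 971 at 16 h became 332 and 2356, and 1484 with no minimum. The 77 at 20 h became 22, 236 and 216, and 40 with the stricter interval. The 28 for 16 h against 8 h became 0, 92, 172 and 4, and the 1000 for 20 h against 16 h became 357 at 10 CPM and 2449 at 1.5-fold. Depth limits the low genes: Bcl3, on 56 against 38 reads at 20 h, has an interval that includes 1. No paired analysis was possible because each label has 1 library.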
